A study of Mus musculus with 6 samples.

Results

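Stem and multipotent progenitor markers were examined in sorted megakaryocyte-erythroid progenitors (MEP), from which megakaryocytes and red cells arise in bone marrow. The members were 10 genes chosen as stem cell markers that an MEP gate should exclude or leave low: Cd34, Ly6a, Procr, Hlf, Mecom, Fgd5, Esam, Mllt3, Prdm16 and Robo4. A gene counted as measured where a row of the array's annotation carried its symbol alone, and its probe set of highest mean over the 6 arrays represented it. This gave 9 of the 10 members, among 22180 genes in all. No probe set was named for Ly6a alone in the annotation used here, so Ly6a, which encodes Sca-1, was not analysed.

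Per the labels, 3 arrays came from T-bet knockout and 3 from wild-type mice, all C57BL/6, 1 animal per array; the labels used here name neither age nor sex. The groups shared the tissue, fresh whole bone marrow, and the sort by flow cytometry of antibody-labelled cells. T-bet is the transcription factor made from Tbx21 and is best known from T helper 1 and natural killer cells. For the kind of knockout allele and the antibodies of the gate, the sources used here give no detail. The comparison asks whether these markers differ in MEP that lack T-bet.

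Blood stem cells renew themselves and give rise to multipotent progenitors, which lose their stem cell genes stepwise as they enter the erythroid, megakaryocytic, myeloid or lymphoid path. In the mouse, MEP are commonly sorted as lineage-negative, Kit-positive cells that lack Sca-1 and CD34 and have little Fc gamma receptor, so Cd34 and Ly6a encode antigens of the usual gate itself. Several of the other markers, among them Procr, Esam, Robo4 and Mecom, are also active in endothelial cells.

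Values are log2 signals of 1 probe set per gene, with ± for the SD of a group of 3. The arrays had medians between 6.44 and 6.53. Tbx21 itself was at 6.49 ± 0.10 in the knockout and at 6.58 ± 0.04 in the wild type, with overlapping groups, so it gave no check of the genotype labels. Sex-linked genes set the arrays apart. Xist, the RNA of the inactive X chromosome, read between 11.79 and 12.21 in knockout replicates 1 and 2 and wild-type replicates 1 and 2, against 5.42 and 5.56 in replicate 3 of each group. The Y-linked gene Eif2s3y read 4.95 in wild-type replicate 2 and between 8.39 and 9.73 in the other 5 arrays. Both signals were therefore present in knockout replicates 1 and 2 and in wild-type replicate 1, which 1 mouse of either sex would not give, and the source of this was not tested. The limma p-values, standard errors (SE) and intervals below draw each probe set's spread between these 6 arrays toward that of all probe sets. For a tightly grouped gene the SE is therefore larger than its own spread would give. The exact permutation p-values use the gene's own 6 values alone.

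Most MEP genes were bright in these cells. Of 15 MEP markers 14 were measured, and 0 lay in the dimmest 30%. Ranked by mean over the 6 arrays, their median was at the 96.9th percentile of all probe sets. Pf4, Itga2b, Nfe2 and Icam4 were less bright, at percentiles 60.2, 67.6, 71.2 and 74.1. Gata1, the erythroid and megakaryocytic transcription factor, read between 10.91 and 11.00 in the 6 arrays. Kit, the stem cell factor receptor of the usual MEP gate and not in this list, read between 11.95 and 12.07. Ranks describe how bright a probe set is and do not order RNA amounts between genes, since probe sets respond differently.

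The markers as a group were of middling brightness, with 1 exception. By mean over the 6 arrays, their median percentile was 51.1, beside 52.3 for all genes. Of the 9, 8 read between 5.39 and 7.27 in all 6 arrays, at within-array ranks from the 24.1th to the 65.8th percentile. Mecom alone lay in the dimmest 30% of probe sets, those with a mean under 5.70, as did 26.5% of all genes. Mllt3 read between 9.99 and 10.23, at the 93.0th percentile by its mean over the 6 arrays. Detection calls were not used here, so whether the 8 dimmer markers lay above background is unknown, and a difference at dim signal can understate a difference in RNA.

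**Figure D1:**
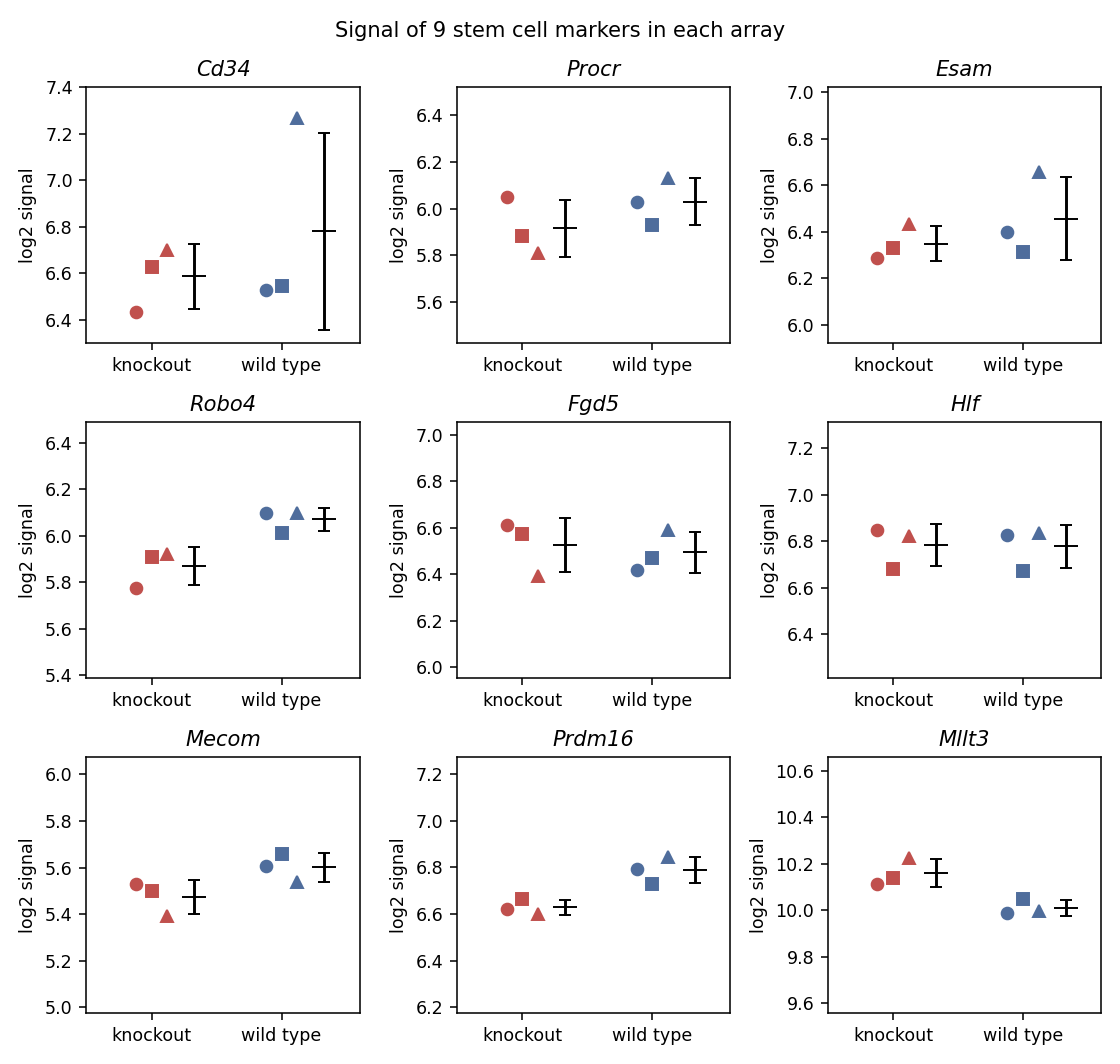
Log2 signal of the 9 measured markers (vertical axes, each spanning the same range of 1.1 log2 units) in knockout (red) and wild-type (blue) arrays; circles, squares and triangles are replicates 1, 2 and 3, and the bars show the mean and the SD over 3 arrays. Robo4, Prdm16, Mecom and Mllt3 are the panels whose groups do not overlap, and wild-type replicate 3 stands above the rest in Cd34.

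No marker passed the test between genotypes. Differences, knockout minus wild type, ran from -0.20 for Robo4 to 0.15 for Mllt3, and 6 of the 9 were below 0. Limma's Benjamini-Hochberg adjusted p was 1 for each of the 9, and 0 of 22180 genes passed 0.05 (0.00%). At limma's unadjusted p under 0.05 there were 0 of the 9 and 695 genes in all (3.13%), and limma-trend called 0 probe sets as well. The median difference of the 9 was -0.12, beside -0.00 over all genes, of which 51.8% were below 0. In sorted cells measured as bulk RNA, fewer cells of a type and less RNA per cell cannot be told apart.

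The surface proteins come first. Cd34, a sialomucin of stem and progenitor cells and of endothelium, read 6.43, 6.63 and 6.70 in the knockout arrays, given here and below in the order of replicates 1 to 3, and 6.53, 6.55 and 7.27 in the wild-type arrays. Wild-type replicate 3 stood alone at the top, and the other 5 values of the 2 groups were interleaved. The difference was -0.19 (SE 0.21, 95% interval -0.70 to 0.32, limma adjusted p = 1), and the exact permutation test, 2-sided, gave p = 0.7. Without wild-type replicate 3 it was 0.05, so the sign of the Cd34 difference rested on that array. Among the 9 markers Cd34 varied most between arrays, with an SD over all 6 of 0.30, higher than 92.7% of genes. The SDs of the other 8 lay between 0.08 and 0.14, at or below the median gene's 0.14.

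Esam, an adhesion molecule of the immunoglobulin superfamily found at endothelial junctions and on stem cells, had its highest value in the same array. It read 6.29, 6.33 and 6.43 in the knockout and 6.40, 6.31 and 6.66 in the wild-type arrays, with overlapping groups. Its difference was -0.11 (SE 0.12, 95% interval -0.39 to 0.18, limma adjusted p = 1), and -0.01 without wild-type replicate 3.

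Procr, the endothelial protein C receptor used to isolate stem cells, read 6.05, 5.88 and 5.81 in the knockout and 6.03, 5.93 and 6.13 in those of the wild type. The groups overlapped, with knockout replicate 1 above 2 of the wild-type arrays. The difference was -0.12 (SE 0.11, 95% interval -0.37 to 0.14). Leaving out replicate 3 of either group gave -0.06, and the value was -0.18 without knockout replicate 1.

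Robo4, a roundabout receptor of endothelium that also takes part in holding stem cells in the marrow, had the lowest unadjusted p of the 9. It read 5.78, 5.91 and 5.92 in the knockout and 6.10, 6.01 and 6.10 in the wild-type arrays. All 3 knockout values lay below all 3 wild-type values. The difference was -0.20 (SE 0.09, 95% interval -0.42 to 0.02, limma unadjusted p = 0.064, adjusted p = 1), and the exact permutation test gave p = 0.1, the smallest that 3 arrays against 3 allow. It stayed between -0.23 and -0.15 in the 15 other settings run, though several of these, such as the replicate block and limma-trend, cannot move it.

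Fgd5, an exchange factor for the small GTPase Cdc42 whose locus serves as a stem cell reporter, read 6.61, 6.57 and 6.39 in the knockout and 6.42, 6.47 and 6.59 in the wild-type arrays. Its groups were interleaved, and the difference of 0.03 (SE 0.10, 95% interval -0.21 to 0.28) was smaller than its own SE.

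Among the nuclear factors, Hlf, a leucine zipper factor of the PAR family that maintains stem cells, was the least different. It read 6.85, 6.68 and 6.82 in the knockout and 6.83, 6.67 and 6.83 in the wild-type arrays. In both groups replicate 2 was the lowest. The difference was 0.01 (SE 0.10, 95% interval -0.23 to 0.24), and its sign turned in 6 of the 15 other settings, where it ran from -0.05 to 0.06.

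Mecom and Prdm16 encode related zinc finger factors with a PR domain, both needed for stem cell maintenance. Mecom read 5.53, 5.50 and 5.39 in the knockout and 5.61, 5.66 and 5.54 in the wild-type arrays. The groups did not overlap, but the gap between knockout replicate 1 and wild-type replicate 3 was narrow. The difference was -0.13 (SE 0.09, 95% interval -0.34 to 0.09, limma adjusted p = 1). A second Mecom probe set gave the same difference, -0.13 (SE 0.14), with overlapping groups.

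Prdm16 read 6.62, 6.66 and 6.60 in the knockout and 6.79, 6.73 and 6.84 in the wild-type arrays. The 3 knockout values were tightly grouped, with an SD of 0.03, and all lay below the wild-type values. The difference was -0.16 (SE 0.09, 95% interval -0.37 to 0.04, limma adjusted p = 1; exact permutation p = 0.1). A second, dimmer probe set of Prdm16 differed the other way, by 0.08 (SE 0.12), and the mean of both gave -0.04, so the Prdm16 difference depended on the probe set.

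Mllt3 encodes AF9, a chromatin reader of the super elongation complex that is known both from stem cell maintenance and from the erythroid and megakaryocytic choice. It read 10.11, 10.14 and 10.23 in the knockout and 9.99, 10.05 and 9.996 in the wild-type arrays. It was the only 1 of the 9 whose knockout values all lay above the wild-type values. The difference was 0.15 (SE 0.09, 95% interval -0.06 to 0.35, limma adjusted p = 1; exact permutation p = 0.1).

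**Figure D2:**
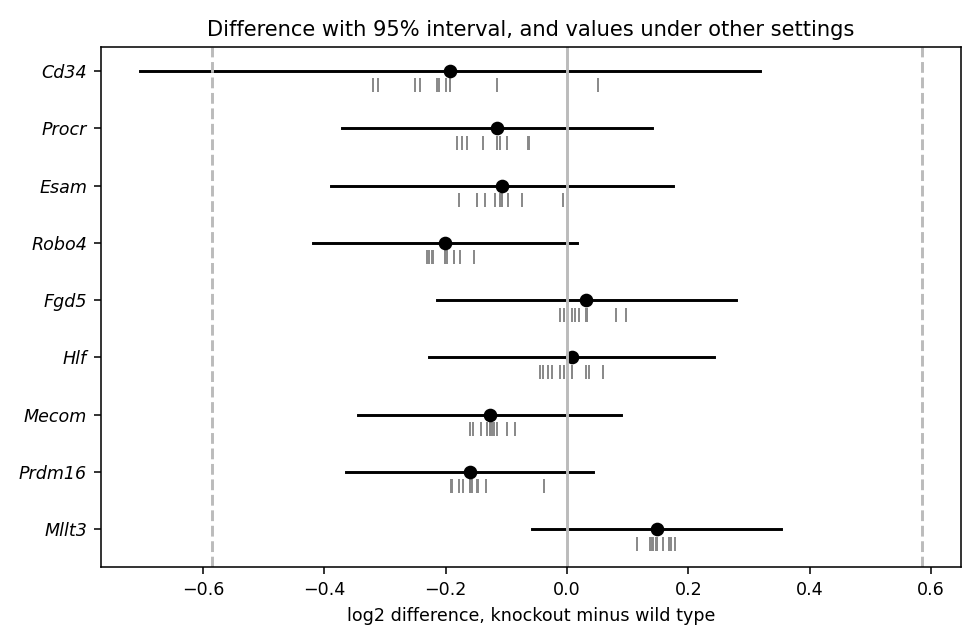
Log2 difference, knockout minus wild type, of each marker (horizontal axis): the point is the difference, the line its 95% interval from limma and the grey ticks the values in the other settings; dashed lines mark 1.5-fold. All 9 intervals include 0, and Cd34 is the marker whose interval passes the 1.5-fold line.

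In all, 4 of the 9 markers had groups that did not overlap, 1 higher and 3 lower in the knockout, where 8.70% of all genes did so (3.52% higher and 5.18% lower). No test was made of this count, and none of the 4 passed limma's threshold. The 95% interval lay within 1.5-fold for 8 of the 9 markers, beside 85.9% of all genes, and within 2-fold for 9 of 9, beside 98.0%.

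The values were also compared within the arrays of like sex-linked signal. Where Xist and Y-linked signal were both present, 2 knockout arrays against 1 wild-type array, the differences were -0.26 for Robo4, -0.15 for Prdm16, -0.09 for Mecom and 0.14 for Mllt3. With Y-linked signal alone, 1 array against 1, they were -0.18, -0.24, -0.15 and 0.23 in the same order. The lack of overlap fixes the signs of these 4. For Cd34 these values were 0.00 and -0.57, the second being knockout replicate 3 against wild-type replicate 3. No class holds more than 2 arrays of a group, so these values carry no test.

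Wild-type replicate 3 held the highest value of 5 of the 9 markers, namely Cd34, Procr, Esam, Prdm16 and Robo4. The share of all genes highest in that array was not computed, so the count does not set the markers apart from other genes. The mean deviation of the 9 from their own means was 0.15 in that array and between -0.04 and 0.00 in the other 5. Without it the median difference of the 9 was -0.01, with 5 of 9 below 0, against -0.12 and 6 of 9 with all arrays. Itga2b, the megakaryocytic integrin chain CD41, was also highest in that array, at 7.86 against 7.15 to 7.50 in the other 5, and so was the platelet chemokine gene Pf4, at 7.49 against 6.40 to 7.13. Of the other 12 measured MEP genes none was highest there, and 3 were lowest there, namely Nfe2, a factor of both lineages, at 7.53, and Klf1 and Zfpm1, a GATA1 cofactor, at 10.48 and 11.04. Whether cells of another kind in that array had a part in the values of the markers was not tested.

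**Figure D3:**
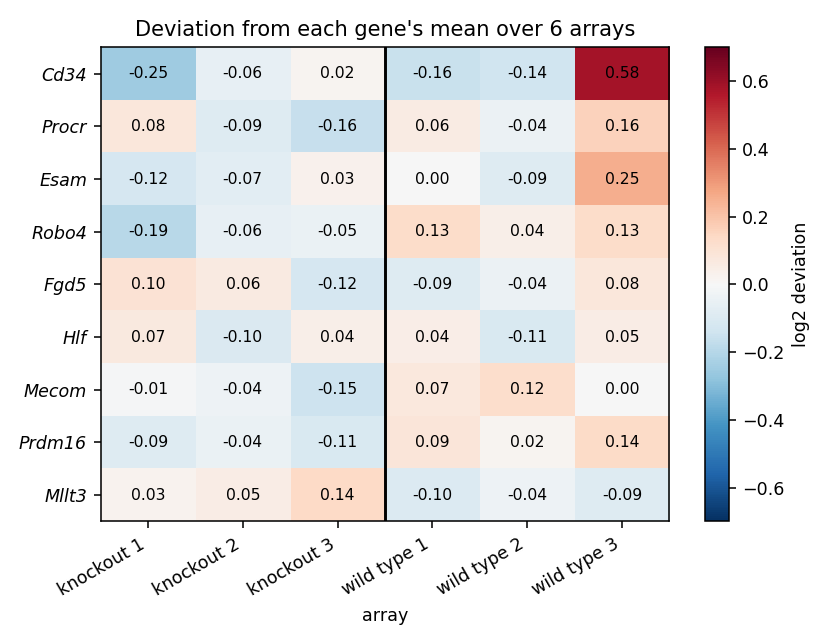
Deviation of each marker (rows) in each array (columns) from the marker's own mean over the 6 arrays, in log2 units, with the values printed and red for higher. Wild-type replicate 3 holds the largest deviation, 0.58 for Cd34, and Mllt3 is positive in the 3 knockout arrays and negative in the 3 wild-type arrays.

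Markers of other cell types were set beside these results. Of 17 endothelial genes, all measured, 12 were lower and 5 higher in the knockout, with a median of -0.09. Their mean log2 signal ran from 6.20 to 6.27 in the knockout and from 6.30 to 6.36 in the wild-type arrays, without overlap. At limma's unadjusted p under 0.05 there was 1 of 17 (3.13% of all genes). This was Sox17, an endothelial transcription factor gene, at -0.29 (SE 0.09), and 0 passed the adjusted threshold. Stab2, a scavenger receptor of sinusoidal endothelium, differed by -0.27 (SE 0.12) and Flt4, a VEGF receptor, by -0.25 (SE 0.13). Of the 17, 5 lay in the dimmest 30%, as did 26.5% of all genes. Among the 5 were Stab2, the defining endothelial cadherin Cdh5, between 5.57 and 5.74, and Emcn, between 4.50 and 5.06. Plvap, Pecam1 and Egfl7 were brighter, with means over the 6 arrays of 8.61, 7.70 and 7.58. They differed by 0.02 (SE 0.13), -0.003 (SE 0.10) and -0.16 (SE 0.09), while Cdh5 differed by 0.05 (SE 0.09) and Emcn by -0.03 (SE 0.17). The part of endothelial RNA in the Robo4, Mecom and Esam values was not tested.

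Of 10 B cell genes 9 were measured, 7 higher and 2 lower, with a median of 0.34 and a mean signal of 6.69 to 7.33 in the knockout and 6.44 to 6.90 in the wild-type arrays. Knockout replicate 3 was the highest and wild-type replicate 2 the lowest, and the median was 0.14 without the former and 0.15 without the latter. Cd79a, which signals for the B cell receptor, Ebf1, a B lineage factor, and Blnk, a signalling adaptor, differed by 0.56, 0.54 and 0.34. The 11 granulocyte and monocyte genes split 5 higher and 6 lower, with a median of -0.01. Csf3r, the receptor for G-CSF, differed by -0.19 (SE 0.09), and Ms4a3 and the granule gene Prtn3 by 0.21 and -0.11. Of 10 T and NK cell genes 8 were measured, 5 higher and 3 lower, with a median of 0.07, and Nkg7, Il2rb and Klrd1 differed by -0.28, 0.21 and 0.23. In each of these 3 lists 0 genes had a limma unadjusted p under 0.05.

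Other genes of the stem and progenitor programme were taken from a separate list. Of 29, 27 were measured, 20 lower and 7 higher in the knockout, with a median of -0.06. At limma's unadjusted p under 0.05 there were 3, 1 higher and 2 lower (1.44% and 1.70% of all genes), and 0 passed the adjusted threshold. Tek, the angiopoietin receptor that marks quiescent stem cells and endothelium, read 5.86, 5.90 and 6.01 in the knockout and 6.25, 6.39 and 6.52 in the wild-type arrays, without overlap. Its difference was -0.46 (SE 0.11, 95% interval -0.72 to -0.21, limma adjusted p = 1). The homeobox genes Hoxb5 and Hoxa10 differed by -0.25 (SE 0.10) and 0.24 (SE 0.09).

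Some members of this list were named after their values were seen. The transcription regulators Gata2, Runx1, Lmo2 and Tal1, which act in stem cells and MEP, differed by -0.02, -0.05, 0.01 and 0.00, and Meis1, Gfi1 and Lyl1 by -0.10 (SE 0.20), -0.08 (SE 0.10) and 0.07 (SE 0.10). Vwf, the platelet adhesion protein that marks platelet-biased stem cells, differed by -0.19 (SE 0.12) and Slamf1, the stem cell antigen CD150, by -0.14 (SE 0.13).

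Genes of lymphoid-primed progenitors, the other branch of multipotent cells, were read from a list of 9. Of these, 7 were measured, 3 higher and 4 lower, with a median of -0.02. Dntt, the terminal transferase of early lymphoid cells, read 6.93, 6.72 and 8.04 in the knockout and 6.85, 6.24 and 6.99 in the wild type. Knockout replicate 3 was the high one, and the difference was 0.54 (SE 0.37, limma adjusted p = 1). Il7r, the interleukin-7 receptor chain, differed by 0.50 (SE 0.34) and was lowest, at 6.48, in wild-type replicate 2. Cd27, a TNF receptor family member of multipotent progenitors, differed by -0.30 (SE 0.14), and Flt3, a cytokine receptor of the same cells, by -0.15 (SE 0.18).

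Of 9 further antigens that an MEP gate commonly excludes, 8 were measured, with a median difference of 0.09, and 0 had a limma unadjusted p under 0.05. The Fc gamma receptor genes Fcgr3 and Fcgr2b differed by -0.02 and 0.07. Cd4 differed by 0.27 (SE 0.12) and Ly6g, a granulocyte antigen in the dimmest 30%, by 0.29 (SE 0.16). The MEP list itself had a median of 0.03, with 10 of 14 higher. Its 1 gene of 14 with a limma unadjusted p under 0.05 (3.13% of all genes) was Itga2b, at -0.34 (SE 0.14). Pf4 had the lowest difference of the list, -0.48 (SE 0.21), and Klf1, an erythroid transcription factor, differed by 0.12 (SE 0.10). Of the 7 measured housekeeping genes, 6 were below 0 with a median of -0.02, and the lowest were B2m, Hprt and Ywhaz at -0.08, -0.08 and -0.04.

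**Figure D4:**
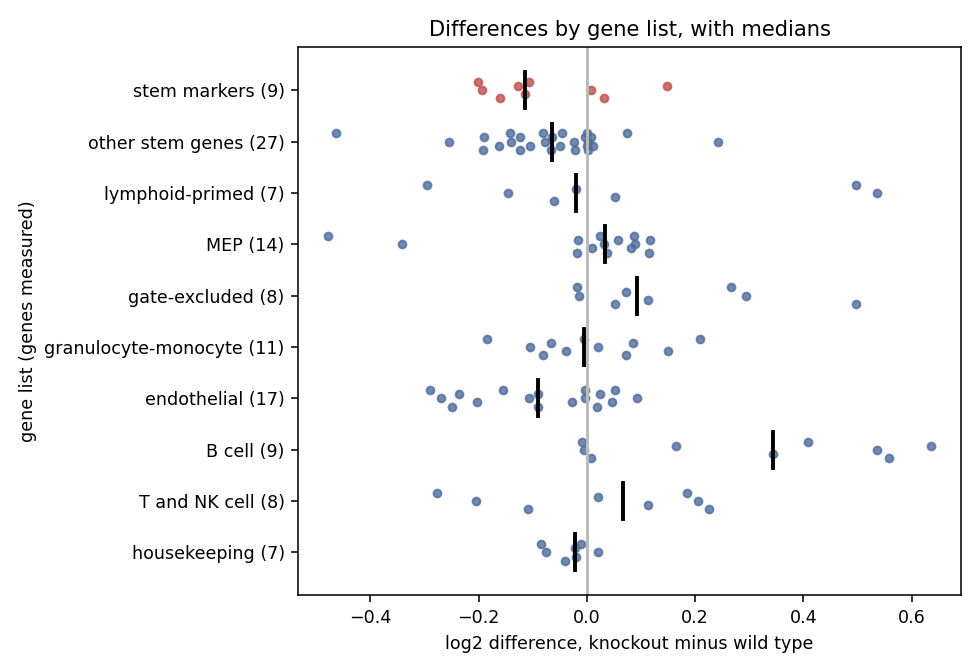
Log2 differences, knockout minus wild type (horizontal axis), of the stem markers (red) and of other gene lists (blue), 1 point per gene, with each list's median as a black line and the number of genes measured in parentheses. The stem markers lie between -0.20 and 0.15, and the widest ranges are those of the lymphoid-primed and the other stem genes.

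Ly6a is known to respond to interferon and lies among close copies of the Ly6 family. With Ly6a itself not analysed, 9 other Ly6 genes were read, 5 higher and 4 lower, with a median of 0.03, which ran from -0.12 to 0.07 with 1 array left out. Ly6g, Ly6d and Ly6k had the smallest p, at 0.29, -0.15 and -0.16, and Ly6e, which is widely active in blood cells, differed by -0.02 (SE 0.10). Of the 9, 5 lay in the dimmest 30%, as did 26.5% of all genes, and the median percentile of the 9 was 17.3. The near copies Ly6c1 and Ly6c2 were among the 5, and whether their probe sets also read each other's transcripts was not tested. Of 11 interferon response genes 9 were measured, 6 higher and 3 lower, with a median of 0.13. Their mean signal was 7.21 in wild-type replicate 3 and between 7.45 and 7.69 in the other 5 arrays. Leaving out wild-type replicate 3 brought the median to 0.00, as did leaving out knockout replicate 2. Isg15, Irf7 and Rtp4, each lowest in wild-type replicate 3, differed by 0.23, 0.20 and 0.22, and 0 of the 9 had a limma unadjusted p under 0.05.

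Relatives of the markers gave a further comparison. Of 20 family members 19 were measured, 7 higher and 12 lower, with a median of -0.04. At limma's unadjusted p under 0.05 there were 2 of 19 (3.13% of all genes). These were the Fgd5 relatives Fgd1 at -0.30 (SE 0.12) and Fgd6 at 0.26 (SE 0.11), and 0 passed the adjusted threshold. Robo1, a guidance receptor related to Robo4, differed by -0.25 (SE 0.15). Tef and Dbp, the other 2 PAR factors beside Hlf, differed by -0.02 and 0.05, and Mllt1, the relative of Mllt3, by 0.08.

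Position was read from RefSeq gene order. Robo4 and Esam lie close together on chromosome 9, with 2 coding genes between them. Those were Robo3, at -0.05 (SE 0.15), and Msantd2, which differed the other way, by 0.17 (SE 0.12). Hlf lies on chromosome 11, as does Tbx21, with 87 coding genes between them, and the Hlf difference was 0.01, as given above.

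The promoters of the markers were searched for 4 short motifs on both strands in the 250 bases before each RefSeq start (GRCm38.p6), which were held for 8 of the 9 measured markers as 10 starts. The T-box core GGTGTG was in 0 of the 10, and in 16.3% of all 32851 promoters. The GATA motif AGATAA was in 0 of 10 (9.99% of all) and the RUNX motif TGTGGT in 0 of 10 (14.0%). The ETS motif AGGAAG was in 3 of 10 (29.5%), those of Cd34, Fgd5 and Robo4. These 3 matches are shown because they were the ones found. Each run is 30 bases, 5′ to 3′ on the gene's strand, the plus strand in all 3, with the motif or its reverse complement in capitals:
Cd34, chr1:194938667-194938696: cgtacacagtggCTTCCTgccacacttaaa
Fgd5, chr6:91978767-91978796: aaaaaaaaaagcCTTCCTctcgggagcggg
Robo4, chr9:37401911-37401940: tgagggccaggcAGGAAGcatccgtttcct
The capitals start 142 bases before the start site in Cd34, 186 in Fgd5 and 49 in Robo4. In Fgd5 and Robo4 the 250 bases searched overlap the gene's own RefSeq model, and in Cd34 they do not. The match is on the reverse strand in Cd34 and Fgd5 and on the forward strand in Robo4. The differences of these 3 genes were -0.19, 0.03 and -0.20.

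The genes most like the 3 most variable markers over the 6 arrays were named by Pearson's r, as a description over the same 6 arrays. For Cd34 they were Rbm38 (r = 0.994), Lamb3 (r = 0.993) and Twf1 (r = 0.986), for Esam Bmf (0.991), Atg101 (0.988) and Cyp24a1 (0.987), and for Robo4 Rpap1 (0.982), Phf13 (0.981) and Naglu (0.980). All 6 genes named for Cd34 and Esam were highest in wild-type replicate 3. Of the 14525 genes searched, 95 had r over 0.9 with Cd34, 109 with Esam and 101 with Robo4. How many unrelated genes would reach this over 6 arrays was not computed, so the counts carry no reading.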

How the data were processed

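The deposited table gives log2 signals of 41345 probe sets in 6 arrays. Per the submitters' processing notes, the authors made these log2 values in Affymetrix Expression Console, version 1.4.1.46; their background correction, normalization and summarisation are not stated in the sources used here. The log base was inferred from the values, whose highest, 14.2, exceeds 11.1, the natural log of the largest 16-bit intensity. Arrays were used as deposited.

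The array's annotation named 23521 probe sets with 1 gene symbol, updated by gene ID through RefSeq (GRCm38.p6). Knockout minus wild type was fitted with limma 3.58.1 (lmFit, eBayes) in R 4.3.3 on all probe sets, with Benjamini-Hochberg adjustment over all of them and a threshold of 0.05. SE and 95% intervals are limma's. Exact permutation tests were 2-sided. The fit was checked on simulated data.

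Members, lists and tests were chosen with earlier results of these data known. Named genes were the members, Tbx21, the 3 of smallest p in each list and the likeness set; other list genes were named after their values were seen. Promoter motifs were chosen after the first look at the files.

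Replicate numbers run from 1 to 3 in both groups. Deviations of same-numbered arrays from their group means correlated at 0.285, 0.116 and 0.115 over genes, above the criterion of 0.1, so they were treated as pairs in the replicate block only; the pairing comes from the data, not from the labels' wording. The other settings were quantile normalization, median centring, array weights, limma-trend, no dim probe sets, named probe sets alone, sex-linked class as a block, the mean of a gene's probe sets, and leaving out each array.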

Additional observations from a re-analysis of the deposited data

How the results depend on the processing

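Over 15 other settings no marker passed limma's adjusted p of 0.05. Mllt3, Robo4, Procr, Esam, Mecom and Prdm16 kept their sign in every setting that measured them, which for Mllt3, Robo4, Mecom and Prdm16 the lack of overlap nearly fixes; Mecom was not measured without dim probe sets. Hlf turned to -0.032 with array weights, -0.039 with the sex-linked class as a block, -0.0048 after a further quantile normalization, and ranged from -0.045 to 0.059 when 1 array was left out. Fgd5 ranged from -0.011 to 0.10 and Cd34 from -0.32 to 0.051 with 1 array left out, Cd34 turning without wild-type replicate 3. The median of the markers ranged from -0.17 to -0.0065 and the number below 0 from 5 to 8 with 1 array left out. Probe sets past adjusted p 0.05 numbered 1 with array weights, 1 with arrays centred on their medians, and 0 to 2 with 1 array left out, the 2 without knockout replicate 3. The cause of these changes was not tested. The replicate block cannot move a difference in this balanced design, and neither can limma-trend or a fit on fewer probe sets. Such settings bear on the p-values alone. With the block, Robo4 had a limma adjusted p of 0.784, against 0.727 to 1 over all its settings. The block called 0 probe sets and changed no call of the 9 markers. The genes of the other lists were not followed under it. With 3 arrays a group, precision is limited. Leaving out 1 array, added after the data were seen, moved the median of the other stem genes between -0.10 and -0.03 and that of the endothelial genes between -0.10 and -0.05.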
